A study of Mus musculus with 2 samples.

Results

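The genes described here are 8 members of the pathway that makes and breaks down glycogen: Gyg, Ugp2, Gys1, Gbe1, Ppp1r3c, Pygl, Pygm and Pygb, of 32285 genes in the count tables. They were chosen by their role in the pathway and because Ppp1r3c had stood out for its higher level in mutant endothelium in an earlier look at these counts. The values of the members in endothelial cells are therefore a description, and nothing is inferred from them. All 8 genes were found by symbol, and all 8 had at least 20 unique molecular identifiers (UMIs, each standing for 1 captured transcript) in each of the 7 cell classes compared, so none dropped out.

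Single cells from E13.5 mouse embryos were profiled with 10x 5′ chemistry. The control library came from Isl1-Cre;R26R-eYFP embryos and the mutant library from Isl1-Cre;R26R-eYFP;Pik3caH1047R embryos, which also carry a Cre-activated allele of the PI3-kinase catalytic subunit with the H1047R substitution. Both groups carry Isl1-Cre, active in the cardiopharyngeal mesoderm lineage and in other Isl1-expressing cells, and the eYFP reporter by which live cells were sorted from tissue above the liver. Each genotype is 1 library of 3 pooled embryos kept on a mixed genetic background, so no spread between embryos could be measured, there is no test between genotypes, and the 95% intervals given below cover counting error only.

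Glycogen is a branched glucose polymer that cells build when glucose is plentiful and break down when energy is short. Glycogenin (Gyg) primes a new particle, UDP-glucose pyrophosphorylase (Ugp2) makes the activated sugar, glycogen synthase (Gys1) lengthens the chains and the branching enzyme (Gbe1) adds branch points. Protein phosphatase 1 is brought to the particle by targeting subunits such as Ppp1r3c, where it activates the synthase and restrains the phosphorylases (Pygl of liver, Pygm of muscle and Pygb of brain), which release glucose 1-phosphate. Several of these genes, among them Ppp1r3c, Gys1 and Gbe1, are known targets of hypoxia-inducible factors, and PI3-kinase signaling is a known activator of glycogen synthesis.

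Because hypoxia-inducible factors bind the core letters ACGTG or GCGTG, the bases upstream of each start were searched for both on either strand, in the 250 bases before the RefSeq start of each gene (GRCm38.p6). Of the 8 members, 6 held at least 1 match, beside 41.5% of 27025 genes with a promoter in the table. Shown here are the regulator and the synthesis genes that were higher in the mutant library in most classes (Ppp1r3c, Gys1, Gbe1). Beside them is Pygb, a phosphorylase that was lower in mutant endothelium, as Pygm also was. Each is given as the stretch before the annotated exon, 5′ to 3′ on the gene's strand, with matches in capitals. They lie at chr19:36736654-36736854 (minus strand) for Ppp1r3c, chr7:45434710-45434838 (plus) for Gys1, chr16:70313699-70313948 (plus) for Gbe1 and chr2:150786546-150786734 (plus) for Pygb.
Ppp1r3c: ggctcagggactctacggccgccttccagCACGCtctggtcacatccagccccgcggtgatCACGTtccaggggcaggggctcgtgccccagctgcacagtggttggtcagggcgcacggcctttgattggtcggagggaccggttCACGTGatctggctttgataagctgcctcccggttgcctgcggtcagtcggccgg
Gys1: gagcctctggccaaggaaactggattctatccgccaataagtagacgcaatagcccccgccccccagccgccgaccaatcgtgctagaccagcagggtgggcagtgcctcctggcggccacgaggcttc
Gbe1: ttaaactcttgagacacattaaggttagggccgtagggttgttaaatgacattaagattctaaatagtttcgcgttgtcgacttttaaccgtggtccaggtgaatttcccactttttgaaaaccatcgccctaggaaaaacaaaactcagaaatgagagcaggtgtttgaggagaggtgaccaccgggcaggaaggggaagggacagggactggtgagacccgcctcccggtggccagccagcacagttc
Pygb: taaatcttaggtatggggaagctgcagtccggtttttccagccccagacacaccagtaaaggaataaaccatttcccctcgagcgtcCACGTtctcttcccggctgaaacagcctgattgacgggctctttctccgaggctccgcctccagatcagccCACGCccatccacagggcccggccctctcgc
Ppp1r3c held 4 matches, of which a pair overlapped on opposite strands as CACGTG. Neither Gys1 nor Gbe1 held any in this window, and Pygb held 2. Among the other members, Gyg held 1, Pygl 2, Pygm 2 and Ugp2 6, all in 1 of its 2 promoters. A match is only a run of letters, and its absence from so short a window says nothing of a factor's binding.

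After filtering (over 2000 but under 9000 genes and under 10% mitochondrial UMIs per cell), 2783 control and 3489 mutant cells remained with 63153191 and 69717583 UMIs and medians of 20412 and 16839 UMIs per cell. Cell classes were rebuilt from clusters and named from marker lists, since no deposited annotation was used, so they may differ from the study's own. The libraries shared 28 cell barcodes, 12 of them among the cells kept, and doublets were kept. Pik3ca itself was at 46.0 CPM (UMIs per 1000000 UMIs of the class) in control and 45.2 CPM in mutant endothelial cells. These counts do not separate the H1047R allele from the native gene, so they do not measure expression of the allele. The pools also differed in sex: in the control 95.5% of cells had Xist UMIs and no Y-linked ones (female-like), a pattern found in 33.6% of mutant cells, while the reverse (male-like) made up 53.3% of these, so the main differences are given again below in female-like cells alone. Although the labels name the pharyngeal arch, heart, mesothelial, neuronal and, in the mutant library, liver-like cells were also present. Of the cell classes, 7 had at least 50 cells in each library and were compared: endothelial (EC-like, 159 control and 752 mutant cells), branchial muscle-like (882 and 841), mesenchyme-like (884 and 581), epithelium-like (213 and 305), mesothelium-like (70 and 66), neuron-like (194 and 472) and cardiomyocyte-like cells (54 and 185). In the larger EC-like cluster, 16 of 16 endothelial markers were raised, and 15 of 16 in the smaller, which was led by the arterial genes Bmx, Gja4 and Eln.

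Ppp1r3c, Gys1 and Gbe1 were higher in the mutant library in most classes, whereas no direction was shared by the other synthesis genes or by the phosphorylases. A value was called higher or lower when it differed by at least 1.5-fold and its counting interval left out equality. By this rule, 27 of the 56 member and class pairs were higher and 7 were lower. Ppp1r3c and Gys1 were higher in all 7 classes and Gbe1 in 6, whereas Gyg was higher in 1 and lower in 2, Ugp2 higher in 2, Pygl higher in 4, Pygm lower in 3 and Pygb lower in 2. With female-like cells alone, Ppp1r3c kept its call only in EC-like and branchial muscle-like cells. The counts in female-like cells were 16 higher and 4 lower of 52 pairs with enough UMIs. No share of all genes was computed for female-like cells, so nothing is read from these counts. Totals over all pairs also include EC-like cells, on which the members were chosen.

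By class, members called higher numbered 5 of 8 in EC-like cells beside 9.53% of all genes tested there, 6 of 8 in mesothelium-like cells beside 18.7%, 4 each in cardiomyocyte-like (6.88%) and branchial muscle-like cells (14.3%), 3 each in epithelium-like (8.35%) and mesenchyme-like cells (11.6%) and 2 in neuron-like cells (5.51%). Members called lower numbered 2 in EC-like cells beside 10.7% of genes, 2 each in mesothelium-like (9.97%) and mesenchyme-like cells (8.37%) and 1 in neuron-like cells (15.4%), with none in branchial muscle-like (7.89%), epithelium-like (9.28%) or cardiomyocyte-like cells (12.3%). Outside EC-like cells the share of members called higher was above the share of all genes in each class. The share called lower was also above that of all genes in mesothelium-like and mesenchyme-like cells. In neuron-like cells both higher calls (Ppp1r3c and Gys1) were lost with each cell thinned to 5000 UMIs. The members were chosen on the EC-like contrast, so nothing is read from its counts. The other classes come from the same pools, with the same difference in sex, so their shares are not independent of that choice. The median log2 ratio of the members was 0.91 in EC-like cells beside -0.060 for all genes. It was 1.09 in mesothelium-like cells (0.052 for all genes), 0.56 in cardiomyocyte-like (-0.046), 0.29 in mesenchyme-like (0.032), 0.52 in branchial muscle-like (0.021), -0.24 in neuron-like (-0.081) and 0.19 in epithelium-like cells (-0.046). Mesothelium-like cells differed in depth between the libraries (medians of 28114 and 14080 UMIs per cell). With each cell thinned to 5000 UMIs, 4 of their 8 calls were lost (Ppp1r3c, Ugp2, Pygl and Pygm), and Gys1, Gbe1 and Gyg were still called higher and Pygb lower. Other scalings of the class totals moved the median of all ratios by 0.140 log2 units in cardiomyocyte-like cells, -0.125 in mesothelium-like cells, 0.117 in neuron-like cells and 0.105 in EC-like cells at most.

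**Figure D1:**
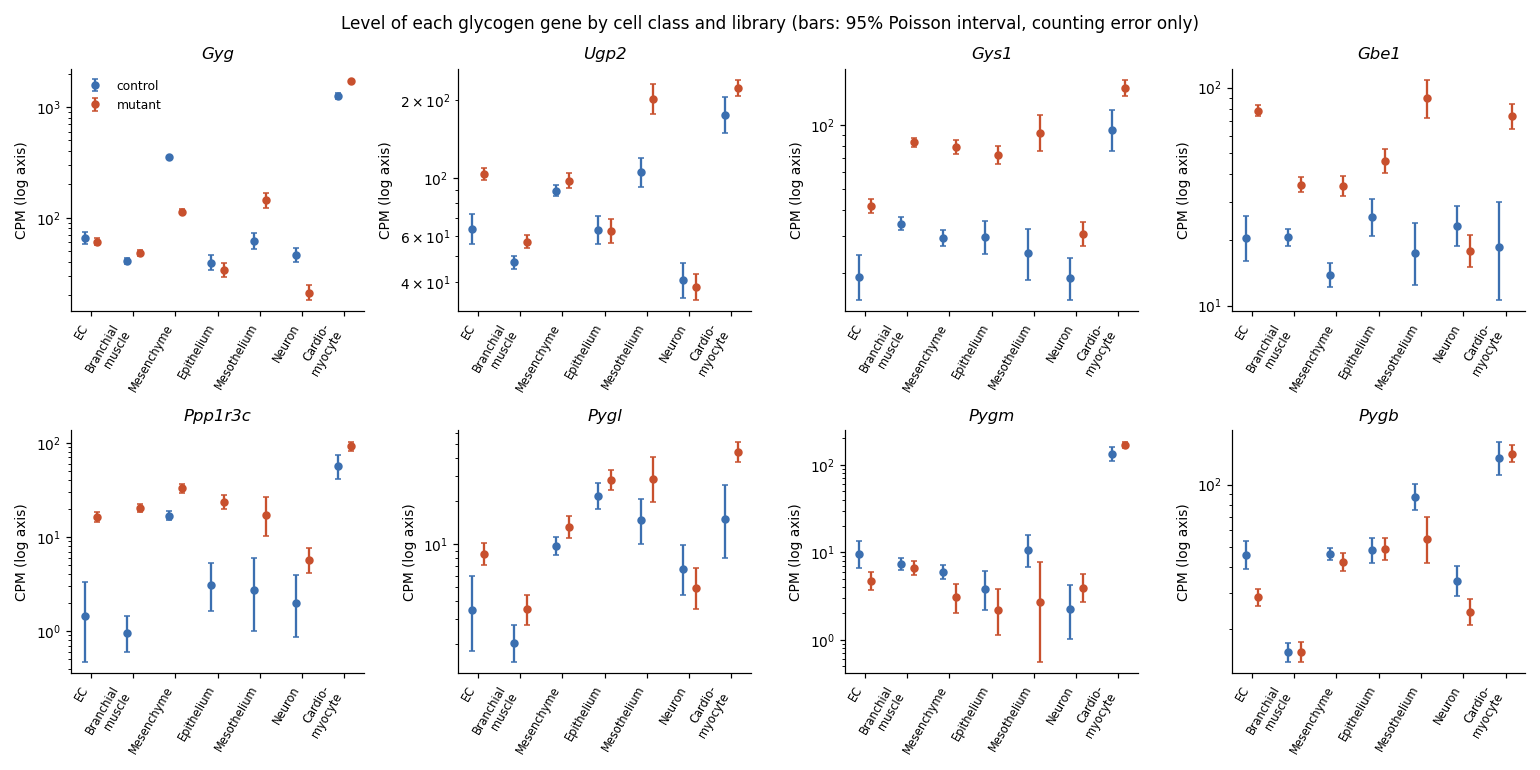
Level of each of the 8 genes, in CPM on a log axis, in 7 cell classes of the control and mutant libraries, with 95% Poisson intervals for counting error. With cells of both sexes pooled, Ppp1r3c and Gys1 are higher in the mutant library in all 7 classes. Gyg is far above the other members in cardiomyocyte-like cells, and Pygm stands out in the same class.

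Gyg, which lays down the first glucose units of a particle, had the highest level of the 8 members over all filtered cells of either library, mainly through 2 kinds of cells. UMIs of this chemistry count 5′ ends of transcripts, so levels of different genes are compared as transcript counts with no length scaling. In cardiomyocyte-like cells Gyg reached 1269 CPM in control and 1730.5 CPM in mutant cells. The next class in the control library was mesenchyme-like at 355 CPM, and the other 5 classes lay between 39.2 and 65.6 CPM. The order from cardiomyocyte-like to mesenchyme-like to EC-like cells held beyond counting error, while the neighbours EC-like and mesothelium-like did not differ beyond it.

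Between genotypes, Gyg showed no common direction across classes. EC-like cells held it at 65.6 CPM in control and 60.9 CPM in mutant, with overlapping intervals (log2 ratio -0.11, -0.32 to 0.11). It was higher in mesothelium-like cells, at 61.7 and 144 CPM (1.22, 0.88 to 1.56), and lower in neuron-like cells, at 46.2 and 20.9 CPM (-1.14, -1.45 to -0.83). Both neuron-like clusters had the lower level, at 40.5 and 18.3 CPM in one and 54.4 and 25.9 CPM in the other.

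Mesenchyme-like cells showed the lowest ratio of Gyg, at 355 CPM in control and 114 CPM in mutant (-1.64, -1.74 to -1.55), but their 2 clusters went opposite ways. The cluster led by Adh1, Wnt2 and Tbx4 had 359 control but 73 mutant cells and a Gyg level of 688 and 313 CPM (-1.14, -1.27 to -1.01). In the other mesenchyme-like cluster, with 525 and 508 cells, Gyg was at 54.7 CPM in control and 69.3 CPM in mutant, a log2 ratio of 0.34 (0.16 to 0.52), an alternative added after the data had been seen. The direction for the class as a whole was therefore not that of its larger cluster.

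Ugp2, which supplies UDP-glucose to glycogen and to other sugar-using pathways, was at 38.1 CPM or more in every class and was called in only 2 of them. EC-like cells had 63.8 CPM in control and 104 CPM in mutant (0.70, 0.50 to 0.91), and intervals did not overlap. The only other class called was mesothelium-like, at 105 and 201 CPM (0.93, 0.66 to 1.20). In epithelium-like cells the values were 63.2 and 62.5 CPM, with a log2 interval of -0.25 to 0.22. Ugp2 in female-like EC-like cells alone had a log2 ratio of 0.65 (0.41 to 0.89).

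Gys1, the synthase of muscle and most other tissues, was higher in the mutant library in each class with cells of both sexes pooled. EC-like cells had 67 UMIs (19.3 CPM) in the control library and 629 UMIs (41.6 CPM) in the mutant one, which is 1.11 on the log2 scale (0.75 to 1.5). Branchial muscle-like cells had 34.3 and 83.2 CPM (1.28, 1.15 to 1.4), and mesenchyme-like cells 29.5 and 79.0 CPM (1.42, 1.26 to 1.58). Intervals of the libraries did not overlap in any of these classes.

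The remaining classes lay on either side of these ratios. Epithelium-like cells were at 29.7 and 72.7 CPM (1.29, 1.00 to 1.59) and mesothelium-like cells at 24.8 and 92.1 CPM (1.89, 1.4 to 2.39). The smallest ratios were those of neuron-like cells, at 19.0 and 30.7 CPM (0.69, 0.32 to 1.09), and of cardiomyocyte-like cells, at 94.7 and 150 CPM (0.66, 0.33 to 1.02). Cardiomyocyte-like cells nevertheless held the highest level of Gys1 in both libraries, beyond counting error from the next class.

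By cluster, the ratio of Gys1 also varied. In the larger EC-like cluster Gys1 was at 16.5 and 42.8 CPM (1.38, 0.94 to 1.84), whereas in the arterial-led cluster it was at 31.8 and 36.4 CPM (0.20, -0.50 to 0.96). The neuron-like cluster led by Cartpt had 21.3 and 22.4 CPM (0.07, -0.42 to 0.58), against 15.7 and 46.0 CPM in the one led by Neurod1 (1.55, 0.93 to 2.22). In branchial muscle, ratios were 1.31 in the Msc and Myf5 cluster, 1.30 in the differentiating Myh3 and Mylpf cluster and 1.65 in the Lama2 and Pax7 cluster. The differentiating cluster had the highest level of the 3 in both libraries, at 51.2 and 126 CPM.

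Gbe1, which transfers chain ends to form branches, had its largest ratios in mesothelium-like, cardiomyocyte-like and EC-like cells. The EC-like values were 71 UMIs (20.4 CPM) in control and 1184 UMIs (78.3 CPM) in mutant, with a log2 ratio of 1.94 (1.59 to 2.31). Mesothelium-like cells had 17.5 and 89.4 CPM (2.35, 1.80 to 2.93), and cardiomyocyte-like cells 18.5 and 73.8 CPM (2.00, 1.27 to 2.83), where the control value rests on 16 UMIs. Control levels of Gbe1 lay in a narrow range, from 13.8 to 25.4 CPM, and no neighbours in their order differed beyond counting error, whereas mutant levels ran from 17.8 to 89.4 CPM.

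Lower ratios of Gbe1 were seen in mesenchyme-like (13.8 and 35.4 CPM, 1.36), epithelium-like (25.4 and 46.2 CPM, 0.86) and branchial muscle-like cells (20.5 and 35.9 CPM, 0.81). Neuron-like cells were the exception, at 23.2 CPM in control and 17.8 CPM in mutant, with an interval of the log2 ratio from -0.78 to 0.01. Within the EC-like class Gbe1 was at 19.0 and 89.0 CPM in the larger cluster (2.23, 1.84 to 2.65) and at 27.0 and 33.0 CPM in the arterial-led one (0.29, -0.47 to 1.12). The intervals of these ratios did not overlap, whereas those of Gys1 did.

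**Figure D2:**
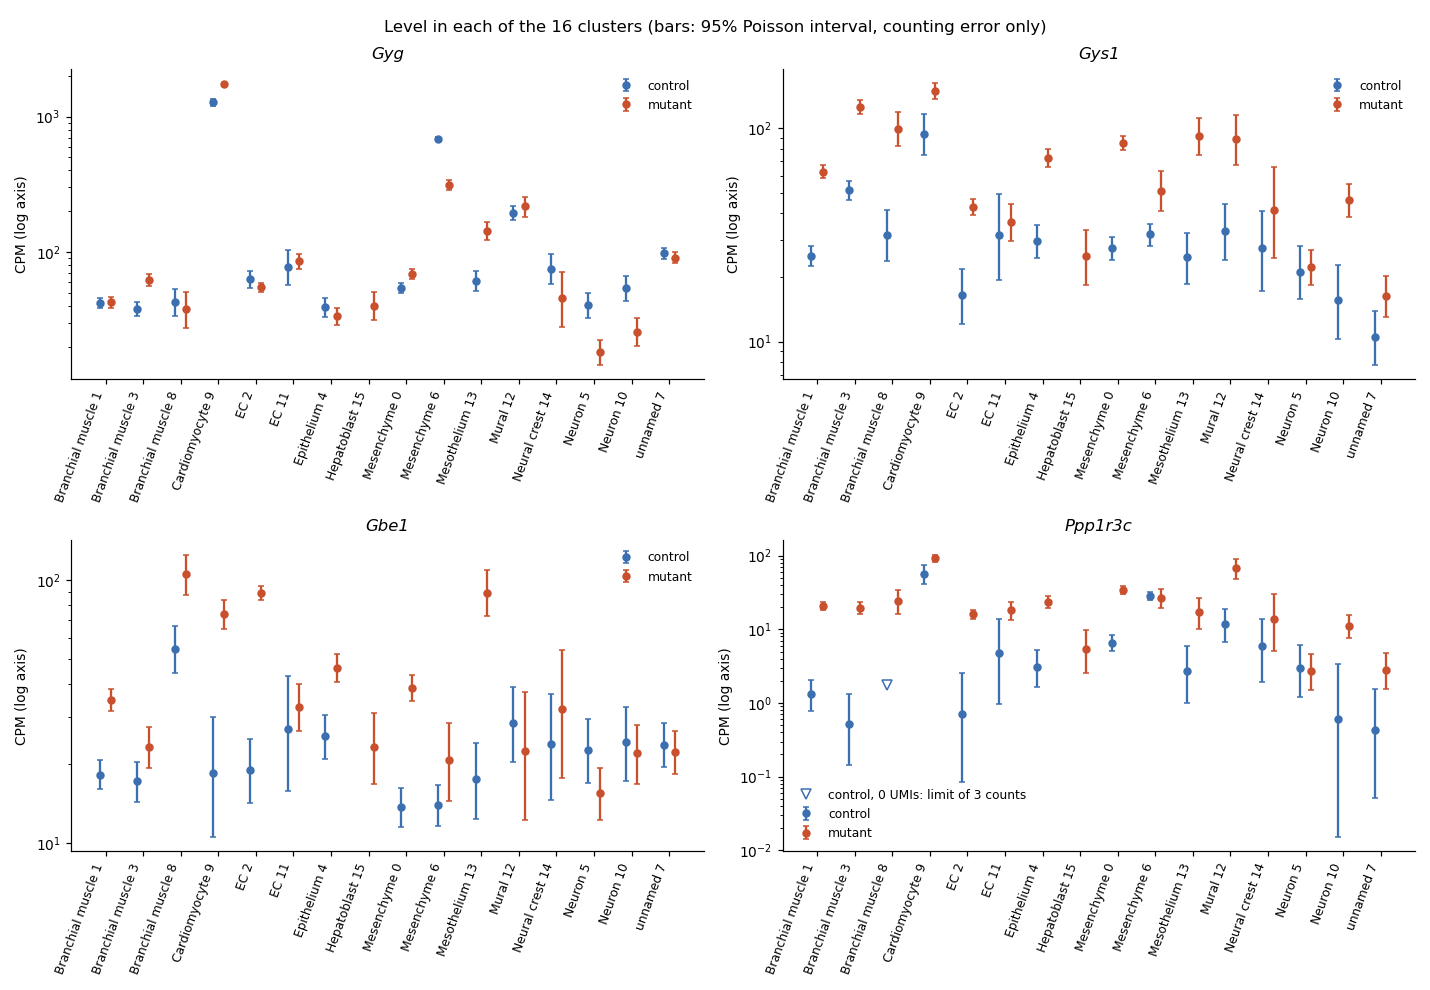
Level of Gyg, Gys1, Gbe1 and Ppp1r3c in each of the 16 clusters, in CPM on a log axis for the control and mutant libraries, with 95% Poisson intervals and an open triangle at the limit of 3 counts where no UMI was found. Gys1 and Gbe1 differ in the larger EC-like cluster (EC 2, 16.5 and 42.8 CPM, 19.0 and 89.0 CPM) and overlap in the arterial-led one (EC 11), and Gyg is highest in cardiomyocyte-like cells and in the Adh1, Wnt2 and Tbx4 cluster (Mesenchyme 6).

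Ppp1r3c, the subunit that targets protein phosphatase 1 to glycogen, was close to absent from several control classes. With cells of both sexes pooled, it was called higher in all 7 classes of the mutant library. Among female-like cells it kept that call only in EC-like and branchial muscle-like cells, and had too few UMIs to be called in mesothelium-like and neuron-like cells. EC-like cells held 5 UMIs of it in control (1.44 CPM) and 248 in mutant (16.4 CPM), and the log2 ratio of 3.51 (2.27 to 5.15) rests on those 5 control UMIs. The ratio was 5.56 without integration of the libraries and 5.51 with classes made from marker counts, where the control side held 1 UMI, and 2.04 (0.67 to 3.75) in female-like cells. The direction was the same in each of these.

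The largest ratio was in branchial muscle-like cells, where the control had 22 UMIs (0.953 CPM) and the mutant 398 UMIs (20.5 CPM), giving 4.43 on the log2 scale (3.81 to 5.12). Each of the 3 branchial muscle-like clusters showed it: 18 and 261 UMIs in the Msc and Myf5 cluster, 4 and 108 UMIs in the differentiating cluster, and 0 and 29 UMIs in the Lama2 and Pax7 cluster. No cell of the 882 in the control held more than 1 UMI of Ppp1r3c. Female-like muscle cells alone gave 3.11 (2.39 to 3.89).

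Epithelium-like cells had 3.09 CPM in control and 23.6 CPM in mutant (2.93, 2.11 to 3.88), and mesothelium-like cells 2.76 and 17.0 CPM (2.62, 1.24 to 4.23), from 6 and 19 UMIs. With so few UMIs, the mesothelium-like call was also lost with mitochondrial UMIs under 5% and with male-like mutant cells set against all control cells. In neuron-like cells the levels were 2.00 and 5.71 CPM (1.51, 0.41 to 2.81), and by cluster the ratio was 4.21 (1.62 to 9.56) in the Neurod1 cluster, from 1 and 31 UMIs, and -0.12 (-1.52 to 1.43) in the Cartpt cluster. These control levels cannot be ordered: from epithelium-like through mesothelium-like, neuron-like and EC-like to branchial muscle-like cells, no neighbours differed beyond counting error.

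Mesenchyme-like and cardiomyocyte-like cells already held Ppp1r3c in the control and had the smallest ratios. Mesenchyme-like cells were at 16.9 CPM (312 UMIs) and 33.0 CPM (314 UMIs), with a log2 ratio of 0.97 (0.74 to 1.20). The Adh1, Wnt2 and Tbx4 cluster had 28.3 and 26.4 CPM (-0.10, -0.58 to 0.36), while the other cluster went from 6.58 CPM in control to 34.5 CPM in mutant (2.39, 1.99 to 2.81). Cardiomyocyte-like cells had the highest level in both libraries, at 56.6 and 92.4 CPM (0.71, 0.27 to 1.17). Their call was lost with high doublet scores removed, with classes from marker counts and with the mean over cells.

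**Figure D3:**
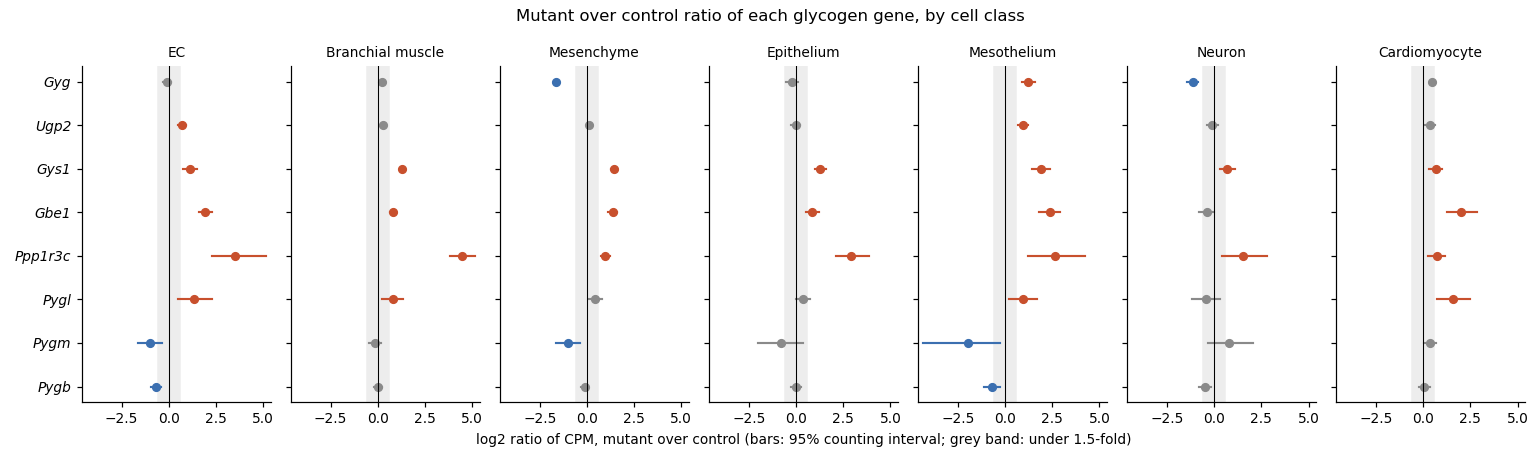
Log2 ratio of mutant over control for each of the 8 genes in 7 cell classes, with 95% counting intervals, a line at 0 for equal levels, a grey band for differences under 1.5-fold, and color for values called higher (orange) or lower (blue). Ppp1r3c spans the widest range, from 0.71 in cardiomyocyte-like to 4.43 in branchial muscle-like cells, Gys1 stays between 0.66 and 1.89, and Pygm and Pygb lie mostly at or below 0.

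Few EC-like cells held a UMI of Ppp1r3c, and at so low a level a cell with none may still express it. In EC-like cells 155 of 159 control cells held no UMI and the highest cell held 2, while in the mutant 623 of 752 held none, 11 held 5 or more and the highest held 10. The share of EC-like cells with a UMI was 2.52% in control and 17.2% in mutant, and 0.641% and 6.69% once every cell was thinned to 5000 UMIs. In the unnamed cluster with macrophage and erythroid genes, taken as background, the shares were 1.15% in control and 2.84% in mutant at medians of 25412 and 27322 UMIs per cell, so the control EC-like share is within the background's counting interval (0.140% to 4.09%).

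Cells of the mutant EC-like class with a Ppp1r3c UMI more often held Gbe1 and Gys1. After thinning, 58.3% (43.2% to 72.4%) of the 48 cells with a Ppp1r3c UMI also held a Gbe1 UMI, against 23.8% (20.6% to 27.2%) of the 669 cells without. For Gys1 the shares were 33.3% (20.4% to 48.4%) and 16.1% (13.4% to 19.1%). Among male-like cells alone they were 65.6% and 27.7% for Gbe1 and 43.8% and 16.4% for Gys1. For Ugp2 (52.1% and 35.7%) and Gyg (29.2% and 22.4%) the intervals overlapped. Pygl was found in 0 of the 48 cells, which allows a share of up to 7.40%, beside 4.19% of the cells without Ppp1r3c. The pattern was not particular to glycogen genes, since Vegfa (77.1% and 36.8%), Adm (77.1% and 39.2%) and Slc2a1 (93.8% and 69.2%) showed it too. Cells of 1 library are not replicates, so these are descriptions of that library.

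Beside known hypoxia targets Ppp1r3c did not have the largest ratio in EC-like cells as classed here, by point values. The log2 ratio was 6.06 for the glucose transporter Slc2a3, 4.63 for Bnip3 and 4.61 for Adm, above the 3.51 of Ppp1r3c. Egln3 (3.27), Ankrd37 (3.02), Vegfa (3.01), Slc2a1 (2.23), Pdk1 (2.13), Ndrg1 (1.99) and Car9 (1.52) were below it. The interval of Ppp1r3c (2.27 to 5.15) overlapped those of Slc2a3 (5.08 to 7.28), Bnip3 (4.16 to 5.13) and Adm (4.06 to 5.21). It also overlapped those of the genes below it except Ndrg1 (1.75 to 2.24), so most of this order is not resolved. In branchial muscle-like cells only Car9 (5.67) among the 10 was above the 4.43 of Ppp1r3c.

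The phosphorylases, which work in the opposite direction, did not move as a family. Pygl was higher in 4 classes. EC-like cells held 12 UMIs of Pygl in control (3.45 CPM) and 130 in mutant (8.60 CPM), with a ratio of 1.32 (0.46 to 2.31), and cardiomyocyte-like cells 13 and 145 UMIs (1.56, 0.74 to 2.50). Neither call was kept in female-like cells (0.61, -0.45 to 1.77, and 1.38, -0.68 to 3.93) or after thinning each cell to 5000 UMIs. The female-like cardiomyocyte-like value rests on 3 control and 8 mutant UMIs, too few for a call. Branchial muscle-like cells had 2.04 and 3.51 CPM (0.78) and mesothelium-like cells 14.7 and 28.6 CPM (0.96), both from fewer than 100 UMIs a library. After thinning to 5000 UMIs the branchial muscle-like ratio was -0.39 (-2.02 to 1.15), from 10 and 7 UMIs. The thinned mesothelium-like ratio was -0.063 (-1.76 to 1.59), from 8 and 7 UMIs. Both had too few UMIs for a call and intervals across equality, so no change of sign is resolved. The highest control level of Pygl was in epithelium-like cells, at 21.9 CPM, against 28.1 CPM in mutant.

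Pygb, the phosphorylase with the most UMIs in each control class (nearly level with Pygm in cardiomyocyte-like cells), was lower in mutant EC-like cells. The control library had 159 UMIs (45.7 CPM) and the mutant library 430 UMIs (28.4 CPM), with a log2 ratio of -0.68 (-0.95 to -0.41), and -0.44 (-0.77 to -0.12) in female-like cells. Both EC-like clusters had it (-0.70 and -0.64). After thinning each cell to 5000 UMIs the ratio was -0.060 (-0.67 to 0.60, from 27 and 119 UMIs), and the cause of this change was not tested.

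Elsewhere Pygb was lower in mesothelium-like cells, at 87.4 and 54.5 CPM (-0.68, -1.12 to -0.26), a call that was lost in G1 cells and in female-like cells (87.7 and 83.6 CPM, -0.069, -0.69 to 0.50). It was nearly equal in branchial muscle-like (15.4 and 15.5 CPM), epithelium-like (48.2 and 48.8 CPM) and cardiomyocyte-like cells (135 and 142 CPM). In neuron-like cells the values were 34.2 and 24.3 CPM (-0.50, -0.82 to -0.17), a difference below 1.5-fold. Counting intervals in mesenchyme-like cells, at 46.0 and 42.2 CPM, overlapped.

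Pygm was highest in striated muscle cells. Cardiomyocyte-like cells were at 133 CPM in control and 170 CPM in mutant (0.35, 0.06 to 0.66), and the differentiating muscle cluster at 14.1 and 16.6 CPM, while the other 6 classes as a whole lay between 2.17 and 10.6 CPM. Lower values in the mutant were found in EC-like cells (9.49 and 4.70 CPM, -1.01, -1.63 to -0.37), in mesenchyme-like ones (6.01 and 3.05 CPM, -0.98, -1.62 to -0.38) and in mesothelium-like ones (10.6 and 2.68 CPM, -1.98, from 23 and 3 UMIs). The larger EC-like cluster had 10.5 and 4.5 CPM and the arterial-led one 4.77 and 5.55 CPM, the latter from 3 control UMIs, and their intervals overlapped. In female-like cells the log2 ratio was -0.78 (-1.55 to -0.01) in EC-like and -0.62 (-1.72 to 0.31) in mesenchyme-like cells. All 3 lower calls of Pygm were lost in G1 cells and after thinning to 5000 UMIs. Those in mesenchyme-like and mesothelium-like cells were also lost in female-like cells.

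As a check on RNA from muscle cells, Pygm was set beside the skeletal actin gene Acta1. Pygm had 228 UMIs per 1000 Acta1 UMIs in control cardiomyocyte-like cells and 54.2 in the control differentiating muscle cluster, against 3750 in the larger control EC-like cluster (30 Pygm and 8 Acta1 UMIs). In the mutant the same ratios were 165, 20.3 and 1719. The unnamed macrophage and erythroid cluster held Pygm at 8.80 and 9.80 CPM, close to the control EC-like level. The part of free RNA in these low values was not tested further.

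**Figure D4:**
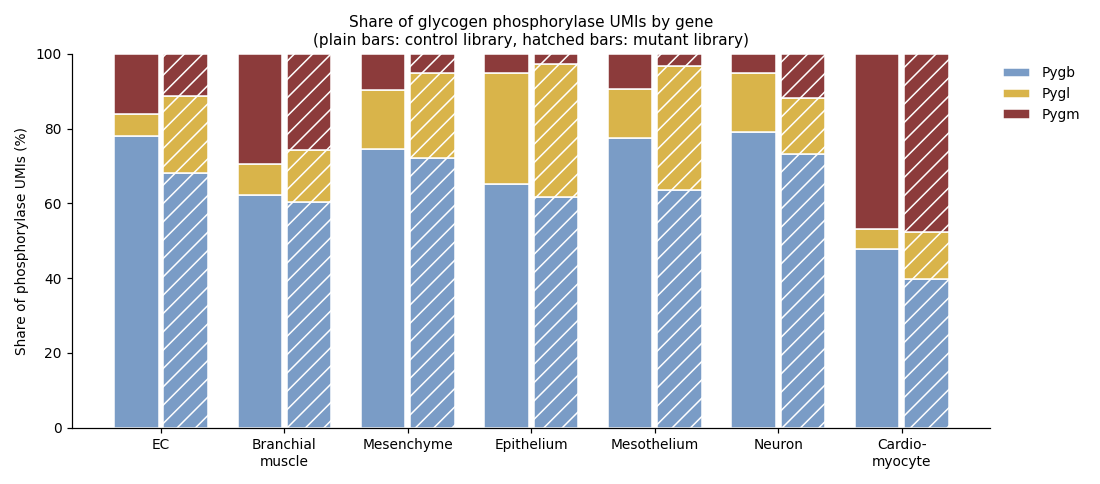
Share of phosphorylase UMIs that came from Pygl, Pygm and Pygb, in percent, by cell class in the control (plain bars) and mutant (hatched bars) library. Pygb makes up most of the UMIs in every class except cardiomyocyte-like cells, where Pygm reaches 46.9% in control and 47.7% in mutant. The Pygl share in EC-like cells is 5.88% in control (12 UMIs) and 20.6% in mutant (130 UMIs), with cells of both sexes pooled.

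Among phosphorylase UMIs of EC-like cells, Pygb made up 77.9% in control (71.6% to 83.4%) and 68.2% in mutant (64.4% to 71.8%), with intervals that just overlap. Pygl made up 5.88% (3.08% to 10.1%) and 20.6% (17.5% to 24.0%), and these intervals did not overlap. The control share rests on 12 Pygl UMIs, and shares were not computed in female-like cells alone. Pygl had 11 UMIs in female-like control and 27 in female-like mutant EC-like cells (log2 ratio 0.61, -0.45 to 1.77), and 85 in male-like mutant ones. Mesothelium-like cells had the same order of Pygl shares, 13.1% in control and 33.3% in mutant. So had cardiomyocyte-like (5.31% and 12.4%), mesenchyme-like (15.8% and 22.7%) and branchial muscle-like cells (8.22% and 13.7%). With cells of both sexes pooled, intervals did not overlap in any of these classes. They overlapped in epithelium-like (29.6% in control and 35.6% in mutant) and neuron-like cells (15.6% and 14.9%). Among female-like cells the log2 ratio of Pygl was -0.06 (-0.74 to 0.56) in mesenchyme-like and 0.02 (-0.93 to 0.88) in branchial muscle-like cells. It was 0.92 (-0.27 to 1.98) in mesothelium-like and 1.38 (-0.68 to 3.93) in cardiomyocyte-like cells, so all of these intervals spanned 0. The differentiating muscle cluster used Pygm for 65.1% in control and 63.0% in mutant, against 14.1% and 10.6% in the Msc and Myf5 cluster, where Pygb made up 79.2% and 74.7%.

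The balance of synthase to phosphorylase transcripts was also compared, as the share of Gys1 among the UMIs of Gys1 and the 3 phosphorylases. It was higher in the mutant library in all 7 classes. EC-like cells had 24.7% in control (19.7% to 30.3%) and 49.9% in mutant (47.1% to 52.7%). Branchial muscle-like cells went from 58.1% in control to 76.5% in mutant, mesenchyme-like cells from 32.3% to 57.5%, epithelium-like cells from 28.7% to 47.9%, mesothelium-like cells from 18.1% to 51.8% and neuron-like cells from 30.5% to 48.1%. Intervals did not overlap in these classes, whereas they did in cardiomyocyte-like cells (25.1% and 29.7%). In female-like mutant EC-like cells the share was 41.6% (36.7% to 46.6%). Female-like mutant intervals also stayed above those of the control in branchial muscle-like, mesenchyme-like, mesothelium-like and neuron-like cells. In epithelium-like cells they overlapped, at 37.8% (31.6% to 44.2%) against 24.5% to 33.2% in control. Female-like mutant cardiomyocyte-like cells were at 24.5% (16.2% to 34.4%), from 23 Gys1 UMIs, and so not above the control.

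Because the control pool was nearly all female-like, male-like cells could be set beside female-like ones within the mutant library only, where each sex also stands for different embryos, and sex and embryo cannot be told apart. Ppp1r3c was higher in male-like cells in 6 of the 6 classes with at least 20 UMIs, by a median log2 ratio of 1.87. EC-like cells had it at 6.39 CPM in female-like and 22.7 CPM in male-like mutant cells, with 1.56 CPM in female-like control cells. By counting intervals that left out equality, Gys1 was higher in male-like cells in 4 of 7 classes and Gbe1 in 4 of 7. Pygb was higher in none and lower in 2. The fold threshold of the genotype calls was not applied to these counts. Below that threshold were the log2 ratios of Gys1 in EC-like (0.57) and mesenchyme-like cells (0.50) and of Pygb in EC-like cells (-0.39). No share of all genes was set beside these counts.

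The genotype difference in female-like cells held for Gys1 in EC-like (0.80, 0.36 to 1.25), branchial muscle-like (0.84, 0.67 to 1.01) and mesenchyme-like cells (1.04, 0.77 to 1.30). Gbe1 in female-like EC-like cells had a ratio of 1.26 (0.87 to 1.66), but its calls were not kept in epithelium-like (0.039, -0.46 to 0.53) or branchial muscle-like cells (0.36, 0.11 to 0.61), and it was lower in neuron-like cells (-0.67, -1.16 to -0.19). Gyg had -2.13 (-2.34 to -1.93) in mesenchyme-like, -1.36 (-1.77 to -0.97) in neuron-like and 1.57 (1.11 to 2.02) in mesothelium-like cells. For Ppp1r3c the female-like ratio spanned 0 in epithelium-like (0.80, -0.50 to 2.07), mesenchyme-like (-0.14, -0.65 to 0.34), neuron-like (0.26, -1.24 to 1.80) and mesothelium-like cells (2.01, -0.26 to 4.09). The value of -1.23 (-2.75 to 0.13) in cardiomyocyte-like cells rests on 16 UMIs of 11 control cells and 7 UMIs of 12 mutant cells. Female-like mesenchyme-like cells were not split by cluster. The Adh1, Wnt2 and Tbx4 cluster, with more Ppp1r3c in control than the other, had 359 control but 73 mutant cells in all.

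**Figure D5:**
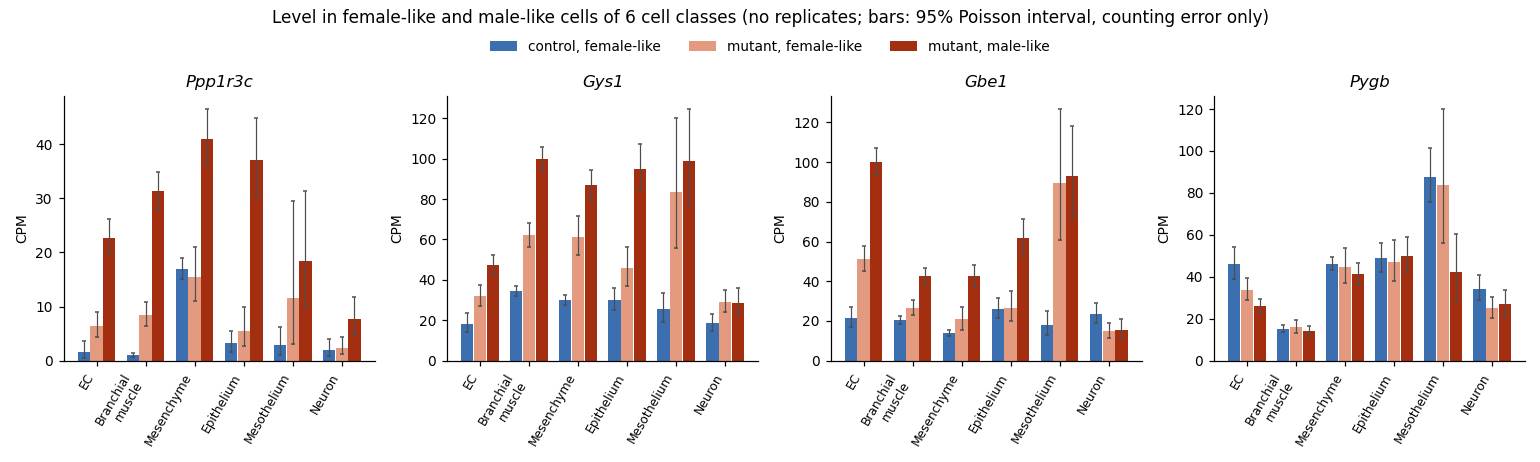
Level of Ppp1r3c, Gys1, Gbe1 and Pygb, in CPM, in female-like control, female-like mutant and male-like mutant cells of 6 cell classes, with 95% Poisson intervals for counting error. Ppp1r3c is at 1.56, 6.39 and 22.7 CPM in the EC-like bars from left to right. In mesenchyme-like cells, where clusters with unlike shares of each library are pooled, the female-like intervals of Ppp1r3c overlap.

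Other genes of glycogen and glucose 1-phosphate handling were taken from a list of 33, of which 28 reached the minimum of 20 UMIs in the EC-like class. Of these, 9 were higher and 0 lower in the mutant library, with a median log2 ratio of 0.22 beside -0.060 for all genes. The largest ratios were those of Hk2, a hexokinase (13 and 746 UMIs, 3.72, 2.94 to 4.64), and Ppp1r3b, another targeting subunit of protein phosphatase 1 (8 and 287 UMIs, 3.05, 2.05 to 4.27). The targeting subunit Ppp1r3g had 0 UMIs in control and 46 in mutant, at least 3.53-fold higher when the control is set at a floor of 3 UMIs. The lowest ratios, of Ppp1r3e (-0.70, -2.13 to 0.94) and of the glycogen-binding protein Stbd1 (-0.46, -1.06 to 0.17), had intervals across 0. Pgm1, which converts glucose 1-phosphate and glucose 6-phosphate into each other, had 19.8 and 94.6 CPM (2.25, 1.90 to 2.62), and the phosphorylase kinase subunit Phkg1 3.16 and 10.2 CPM (1.69, 0.81 to 2.72). Hk2 was called higher in all 7 classes and Pgm1 in 6, the exception being mesothelium-like cells (0.49).

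In the other classes the same list gave 11 higher and 1 lower of 31 in branchial muscle-like cells, 7 and 2 of 22 in mesothelium-like cells, 9 and 1 of 30 in mesenchyme-like cells, 3 and 2 of 26 in cardiomyocyte-like cells, 5 and 3 of 27 in epithelium-like cells and 4 and 6 of 28 in neuron-like cells. These counts stand beside the shares of all genes called in each class, given above, where higher calls also outnumbered lower ones in branchial muscle-like, mesenchyme-like and mesothelium-like cells.

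The genes with the most similar patterns were found by Pearson correlation of log2(CPM + 1) over the 14 class and library sums, as a description over points that share libraries and embryos. Ppp1r3c was most like Ppp1r3g (0.90), Gys1 (0.88) and Pdk3 (0.86), so that its nearest neighbours included another targeting subunit and the synthase. Ppp1r3g had only 198 UMIs over these sums, with 0 in control EC-like cells, so part of its pattern lies near the floor. Gys1 was most like Fam162a (0.93), Gbe1 like Adm2 (0.86, from 134 UMIs of Adm2) and Ugp2 like Pdk3 (0.90). Gyg was most like Rbpms2 (0.96), while Pygl was most like Tmem192 (0.89) and Pygb like Gm2a (0.94). Among members, the lowest correlations were between Gbe1 and the phosphorylases Pygm (0.00) and Pygb (0.10).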

How the data were processed

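The authors deposited gene by cell matrices of raw UMI counts, 1 per genotype, made with Cell Ranger 7.1.0 against GRCm38/mm10. The intron setting and annotation release are not given in the sources used here. From the counts, cells with over 2000 but under 9000 genes and under 10% mitochondrial UMIs were kept (2783 of 4505 control and 3489 of 5357 mutant cells). Seurat 5.3.0 (R 4.3.3) was used with 2000 variable genes, CCA integration, cell-cycle regression and 30 components, and the lowest resolution giving at least 15 clusters was taken, which gave 16. The 51 genes reported here were left out of the variable genes. Clusters were named from marker lists when at least 3 markers were raised 2-fold, and classes with at least 50 cells in each library were compared.

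UMIs were summed per class and library and scaled to counts per 1000000 (CPM). Levels carry exact Poisson, ratios conditional binomial and shares Clopper-Pearson limits, all at 95% and for counting error only. Genes needed at least 20 UMIs over both libraries, and a difference of at least 1.5-fold whose interval left out equality was called. Every member was named in every class. From the glycogen list, the 2 largest and the 2 smallest ratios in EC-like cells and up to 4 more were named, together with 10 hypoxia targets and the 3 most similar genes of each member, of which the first are given. Some items these rules name are not reported here. Members and lists were chosen with earlier results of these data known. Alternatives were other classes, filters, scalings (edgeR 4.0.16), thinning, doublet removal by Scrublet score (scanpy 1.11.5), sex-like classes and G1 cells. The calling of ratios was run on data simulated with counting error alone. Those data held no differences between embryos or cells, so the run says nothing of such differences. Reads of a gene and of overlapping transcripts were assigned upstream and were not separated here.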

Additional observations from a re-analysis of the deposited data

Results flagged for a closer look

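Gyg stood out because its ratio of mutant over control pointed in opposite directions in different classes. The log2 ratio was -1.64 in mesenchyme-like and -1.14 in neuron-like cells but 1.22 in mesothelium-like cells, and the difference between classes was not tested, since each library is a single pool.

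Pygl had a clear level in cells outside the compared classes. The 46 hepatoblast-like cells, all of them in the mutant library and marked by Alb, Afp and Apoa1, held Pygl at 84.7 CPM (72.0 to 99), above every compared class, the highest of which was mutant cardiomyocyte-like cells at 44.2 CPM. No control cells of this kind were present, so no ratio can be given.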

How the results depend on the processing

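No paired analysis was possible because each genotype is 1 library of pooled embryos, and leaving out a replicate was not possible for the same reason. The 34 called member and class pairs were recomputed under each alternative, giving 454 values, of which 395 moved by less than their interval, 53 moved and 6 reversed. The call was kept in 404 and lost in 50, and 13 pairs kept it under every alternative run. Most losses came in female-like cells (16) and in cells thinned to 5000 UMIs (13). The count of members lower in EC-like cells was 2, but 0 after thinning, where only 7 members had enough UMIs. It was 1 in female-like cells, in G1 cells and with TMM factors. Of all pairs, 16 were higher and 4 lower in female-like cells, for which no share of all genes was computed. Ppp1r3c in EC-like cells had a log2 ratio of 5.56 without integration, 5.51 with classes from marker counts and 2.04 in female-like cells. Reversed ratios were those of Pygl in branchial muscle-like (-0.39) and mesothelium-like cells (-0.063) after thinning, of Ppp1r3c in mesenchyme-like (-0.14) and cardiomyocyte-like (-1.23) and of Gys1 in cardiomyocyte-like cells (-0.16), all in female-like cells, and of Gyg in the larger mesenchyme-like cluster alone (0.34). That last alternative and the larger EC-like cluster alone were chosen after seeing the data. Of the reversed ratios, only that of Gyg had an interval that left out equality. The thinned Pygl ratios had too few UMIs for a call. The cause was not tested for these changes. Depth limits Ppp1r3c in control EC-like cells (5 UMIs) and Pygm outside muscle.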

Other observations

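Cell groups outside the comparison held the pathway genes as well. Hepatoblast-like cells of the mutant library had Gys2, the liver synthase, at 19.8 CPM (14 to 27.3), beside 25.2 CPM of Gys1, and Pygl made up 61.5% of their phosphorylase UMIs. Glucose-6-phosphatase (G6pc) had 0 UMIs there, which allows a level of up to 1.61 CPM at a floor of 3 UMIs.

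Mural-like cells (102 control and 42 mutant) had Ppp1r3c at 11.7 CPM in control and 67.1 CPM in mutant (log2 ratio 2.51, 1.65 to 3.44), Gys1 at 33.0 and 89.4 CPM (1.44, 0.84 to 2.04) and Pygl at 33.0 and 78.2 CPM (1.24, 0.63 to 1.86). Their Gbe1 was at 28.6 and 22.4 CPM, with overlapping intervals. Pygm had 12 UMIs in control and 0 in mutant mural-like cells. In the unnamed macrophage and erythroid cluster, Gys1 was at 10.5 and 16.4 CPM (0.64, 0.11 to 1.18), while Pygl (39.7 and 24.2 CPM, -0.71) and Pygb (34.3 and 21.2 CPM, -0.70) were lower in the mutant.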
